A study of Mus musculus with 27 samples.

Results

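The genes described here belong to the route by which IgA is made and carried into tears. They were chosen by name and comprise 8 of the 43346 Ensembl genes in the normalized expression table: Jchain, Igha, Igkc, Mzb1, Tnfrsf17, Irf4, Xbp1 and Pigr. All 8 had a row. Tnfrsf17, at 0 to 4 estimated counts per library, did not pass the filter on low values, so 7 of the 8 were tested. Jchain, Igha, Igkc and Mzb1 moved together from mouse to mouse and differed widely between mice of the same group, whereas Xbp1 and Pigr followed the day after injury.

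RNA was sequenced from lacrimal glands of wild type BALB/c mice, given as 8 to 10 weeks old in the sample labels (the study's methods give an older range). Glands were left without injection (day 0) or were injected with 1 µg interleukin-1 alpha (IL-1α), an inflammatory cytokine, and taken daily from day 1 to day 5, at day 7 or at day 14; a further group was injected with saline and taken at day 14. Each group had 3 mice, each library being 1 mouse, and 26 of the 27 libraries had values (day 7 mouse 2 was not analysed here). Following the study, day 2 mouse 3, day 4 mouse 1 and day 7 mouse 1 were left out of the tests, which therefore used 23 libraries, with 2 mice at days 2 and 4 and 1 mouse at day 7; values of the omitted libraries are given throughout. No saline group was available for the earlier days, so injection and IL-1α cannot be told apart there. 

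Depth ranged from 9.5 M to 13.1 M estimated counts per library. Genes of the lacrimal acinus were abundant in every library, their summed normalized expression ranging from 814724 to 3102725. The libraries also carried very unequal amounts of parotid-type salivary transcripts (summed level 68.8 to 2156181), and skeletal muscle transcripts reached 7357 at day 2. Jchain did not follow either: its Pearson r with Bpifa2 was -0.01 and with Acta1 -0.20 (26 libraries, permutation p 0.948 and 0.327, adjusted 0.948 and 0.534; Spearman rho -0.16 and -0.23).

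In the lacrimal gland, plasma cells in the stroma secrete IgA as dimers joined by the J chain. The polymeric immunoglobulin receptor on the basolateral side of acinar and ductal cells binds these dimers, carries them across the cell and is cleaved at the lumen, releasing secretory IgA. Plasma cells arise from B cells when IRF4 and BLIMP1 switch on the secretory programme, in which XBP1 expands the endoplasmic reticulum; XBP1 also serves exocrine acinar cells. Each plasma cell clone uses 1 rearranged heavy chain and 1 rearranged light chain variable segment, but different clones can use the same segment. B cells express these segments too. The variable segments in a gland therefore show segment use and do not identify clones. Because whole glands were sequenced, fewer plasma cells and less RNA per plasma cell cannot be told apart.

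The variable segments that led differed from mouse to mouse. Of 281 variable segment rows (175 heavy, 103 kappa and 3 lambda), 196 were above 0 in at least 1 library. The 3 with the highest mean over 26 libraries were Igkv8-24, Igkv1-135 and Igkv4-68, and each owed most of its total to a single mouse. A ranking by mean favours segments that lead a rich gland, so this partly follows from the choice. These 3 are described because each led a different one of the 3 glands richest in immunoglobulin: day 0 mouse 3, day 4 mouse 1 and day 5 mouse 1. The coding part of the second exon, which encodes the variable domain, is printed from the GENCODE M21 reference (GRCm38, chromosome 6) for the first 2 of them, 5′ to 3′ on the coding strand. Capitals mark bases that matched neither of the other 2 of the 3 segments when aligned in pairs. The first 300 bases of each are printed: Igkv8-24 at 70216874 to 70217173 on the minus strand and Igkv1-135 at 67610196 to 67610495 on the plus strand.
Igkv8-24: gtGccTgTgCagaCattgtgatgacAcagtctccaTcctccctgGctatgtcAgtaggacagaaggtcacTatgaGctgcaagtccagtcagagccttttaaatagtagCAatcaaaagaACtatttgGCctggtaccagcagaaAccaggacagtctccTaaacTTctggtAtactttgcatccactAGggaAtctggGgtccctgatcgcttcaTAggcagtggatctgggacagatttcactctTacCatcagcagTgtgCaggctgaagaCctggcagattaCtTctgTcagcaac
Igkv1-135: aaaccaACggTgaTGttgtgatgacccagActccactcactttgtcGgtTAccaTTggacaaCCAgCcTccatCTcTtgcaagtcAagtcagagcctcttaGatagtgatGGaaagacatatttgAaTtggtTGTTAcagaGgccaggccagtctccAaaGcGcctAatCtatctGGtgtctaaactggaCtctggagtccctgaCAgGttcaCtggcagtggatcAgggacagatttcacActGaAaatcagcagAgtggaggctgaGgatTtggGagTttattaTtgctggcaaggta

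Over the whole coding exon part, these 3 segments shared 62.1% to 67.0% of aligned positions with one another. Each had a closer relative in the reference: Igkv8-30 matched Igkv8-24 at 91.8%, Igkv1-133 matched Igkv1-135 at 96.5% and Igkv4-55 matched Igkv4-68 at 95.7%. Those relatives reached at most 101, 10.8 and 31.3 in any library. These values do not measure how reads were shared between near copies, which was not tested. The reference genome is from C57BL/6 and the mice were BALB/c, so a segment name here is the nearest reference segment, and rearranged genes also carry junctions and mutations that the reference lacks.

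Igkv8-24 stood at 937 in day 0 mouse 3, at 165 in day 4 mouse 1 and at a median of 3.11 over the 26 libraries, so that a single mouse held 70.2% of its total. Igkv1-135 stood at 835 in day 4 mouse 1, with 81.3 in day 7 mouse 3 as the next value and a median of 1.92. Igkv4-68 stood at 625 in day 5 mouse 1, with 108 in saline day 14 mouse 1 next and a median of 2.6. Each of the 3 segments was thus high in 1 gland and listed at 0 in others, namely in 6, 10 and 9 libraries.

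Other glands had other leaders. Iglv1, a lambda segment, led in day 0 mouse 1 (168, 33.9% of the summed variable segment expression of 497), in day 2 mouse 1 (27.7) and in day 2 mouse 2 (64.9, or 44.2%). Igkv1-110 led in day 1 mouse 2 (115), Igkv1-117 in day 2 mouse 3 (223), Igkv5-43 in day 7 mouse 1 (135), Igkv12-44 in day 7 mouse 3 (204) and Igkv8-30 in day 14 mouse 3 (101). Ighv3-6 was the leading heavy chain segment of day 4 mouse 1 (321, 35.8% of heavy chain segments) and Ighv10-1 that of day 2 mouse 2 (41.6, 86.1%). Over the 26 libraries there were 12 different leading kappa segments and 16 different leading heavy segments.

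In the median library 4.5 segments held 50% of the summed variable segment expression, with a range from 2 to 11. The summed expression itself ranged from 34.6 in day 1 mouse 3 to 2846 in day 4 mouse 1, or 47 to 2240 estimated counts, so shares in the poorest libraries rest on few reads. The likeness of kappa segment use between 2 libraries, measured as the cosine of their segment shares in the 25 libraries with at least 100 estimated counts, had a median of 0.21 over 23 pairs of the same group (0.02 to 0.77) and of 0.16 over 277 pairs of different groups (0.01 to 0.90). Mice of the same day thus had little more in common than mice of different days; this difference was not tested. Lambda segments made up 0.602% to 68.6% of light chain segment expression, with a median of 6.17%.

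**Figure D1:**
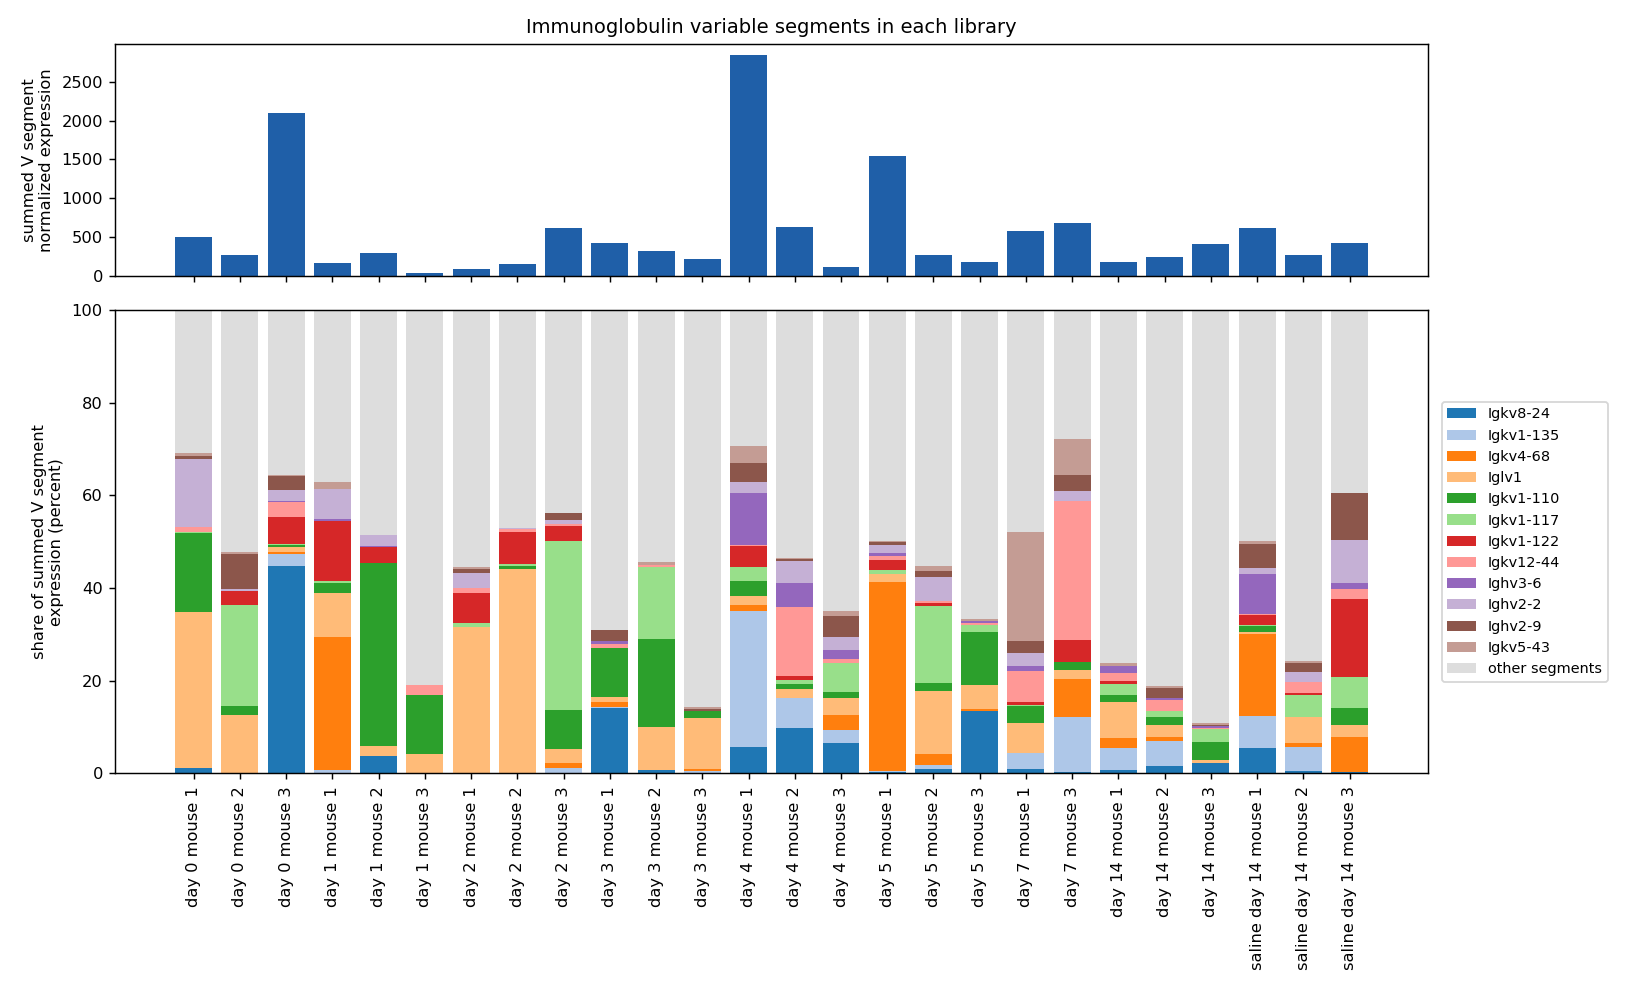
Immunoglobulin variable segments in each of the 26 libraries. The upper bars give the summed normalized expression of all variable segments and the lower bars the share, in percent, of the 12 segments with the highest mean, with all others in grey. Day 0 mouse 3, day 4 mouse 1 and day 5 mouse 1 stand out in the upper panel, each with a different leading segment (Igkv8-24, Igkv1-135 and Igkv4-68).

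Of the genes encoding the antibody itself, Igha, the constant region of the IgA heavy chain (chromosome 12, 113254830 to 113260236, GRCm38, minus strand), differed 117.3-fold between its lowest and highest library. In the uninjured glands it stood at 723, 456 and 4560. At day 1 it stood at 327, 656 and 40.5 and at day 2 at 153.5, 254 and 1538, the last in the omitted library. One uninjured mouse was therefore far above the other 2, and 1 mouse at day 1 was far below its group.

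Igha stood at 1079, 758 and 331 at day 3, at 4752 (omitted), 1541 and 174 at day 4, and at 2980, 382 and 367 at day 5. It stood at 940.5 (omitted) and 1506 at day 7, at 258, 406 and 779 at day 14, and at 1209, 340 and 939 in the saline group. With the omitted libraries counted, every group overlapped the uninjured mice; the 2 tested mice of day 2 lay below them. The log2 fold change from day 0 was -2.47 ± 1.00 (SE) at day 1 and -2.53 ± 1.12 at day 2, which did not pass the test (limma on log2(value + 1), Benjamini-Hochberg over 13762 genes, adjusted p = 0.0531 and 0.0932).

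Jchain, which encodes the J chain (chromosome 5, 88519809 to 88527891, minus strand), showed the same order of mice. It stood at 246, 146 and 1327 at day 0, at 91, 183 and 8.1 at day 1, at 59.2, 95.1 and 429 (omitted) at day 2 and at 313, 225 and 137 at day 3. It stood at 1593 (omitted), 374 and 47.6 at day 4, at 903.5, 150.6 and 110 at day 5, at 338 (omitted) and 450.5 at day 7, at 124.5, 199 and 293 at day 14, and at 355, 174 and 261 after saline. The same 3 mice as for Igha were the highest and day 1 mouse 3 was again the lowest, with 11 estimated counts.

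Jchain was lower at day 1 than at day 0 by the test, with a log2 fold change of -2.76 ± 0.95 (6.80-fold on the scale of value + 1, limma adjusted p = 0.0242, 3 against 3 mice). The ranges nevertheless overlapped, since day 1 mouse 2 (183) exceeded day 0 mouse 2 (146). The call was lost without day 0 mouse 3 or without day 1 mouse 3, where the log2 fold change fell as low in size as -1.49 and the adjusted p rose as high as 0.201. It was also lost with libraries scaled to equal totals (-1.61, adjusted p = 0.128), without the filter on low values (0.0834), in a fit of the 2 groups alone (0.0868) and with saline as the control (-2.25, adjusted p = 0.0725), and was thus made in 8 of 14 alternatives.

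Igkc, the constant region of the kappa light chain (chromosome 6, 70726435 to 70726966, plus strand), stood at 193, 133 and 1608 at day 0, at 99.9, 190 and 11.1 at day 1, and at 35.7, 27.5 and 454 (omitted) at day 2. It stood at 370, 211 and 110 at day 3, at 1607 (omitted), 443 and 77.4 at day 4, at 999, 159 and 144 at day 5, at 437 (omitted) and 519 at day 7, at 141, 190 and 283 at day 14, and at 423, 211 and 277 after saline. Its 2 tested libraries at day 2 were below every uninjured one, while the omitted library at that day was above 2 of the 3.

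The test called Igkc lower at day 1, by -2.50 ± 0.94 on the log2 scale (adjusted p = 0.0376), and at day 2, by -3.42 ± 1.05 (adjusted p = 0.0172). Without day 0 mouse 3 or day 1 mouse 3 the day 1 call was lost, its log2 fold change lying between -3.31 and -1.32 over the libraries left out in turn and its adjusted p between 0.0129 and 0.27. It was also lost with the omitted libraries put back (adjusted p = 0.0796), without the filter (0.116), in a fit of the 2 groups alone (0.12), with equal totals (-1.33, adjusted p = 0.199) and with saline as the control (-2.25, adjusted p = 0.0675), and was made in 7 of 14 alternatives. The day 2 call, made in 8 of 13, was lost without day 0 mouse 3 (-2.32, adjusted p = 0.0918), without either day 2 mouse (adjusted p = 0.078 and 0.0998), without the filter (0.0628) and with the omitted libraries put back (-2.15, adjusted p = 0.131).

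**Figure D2:**
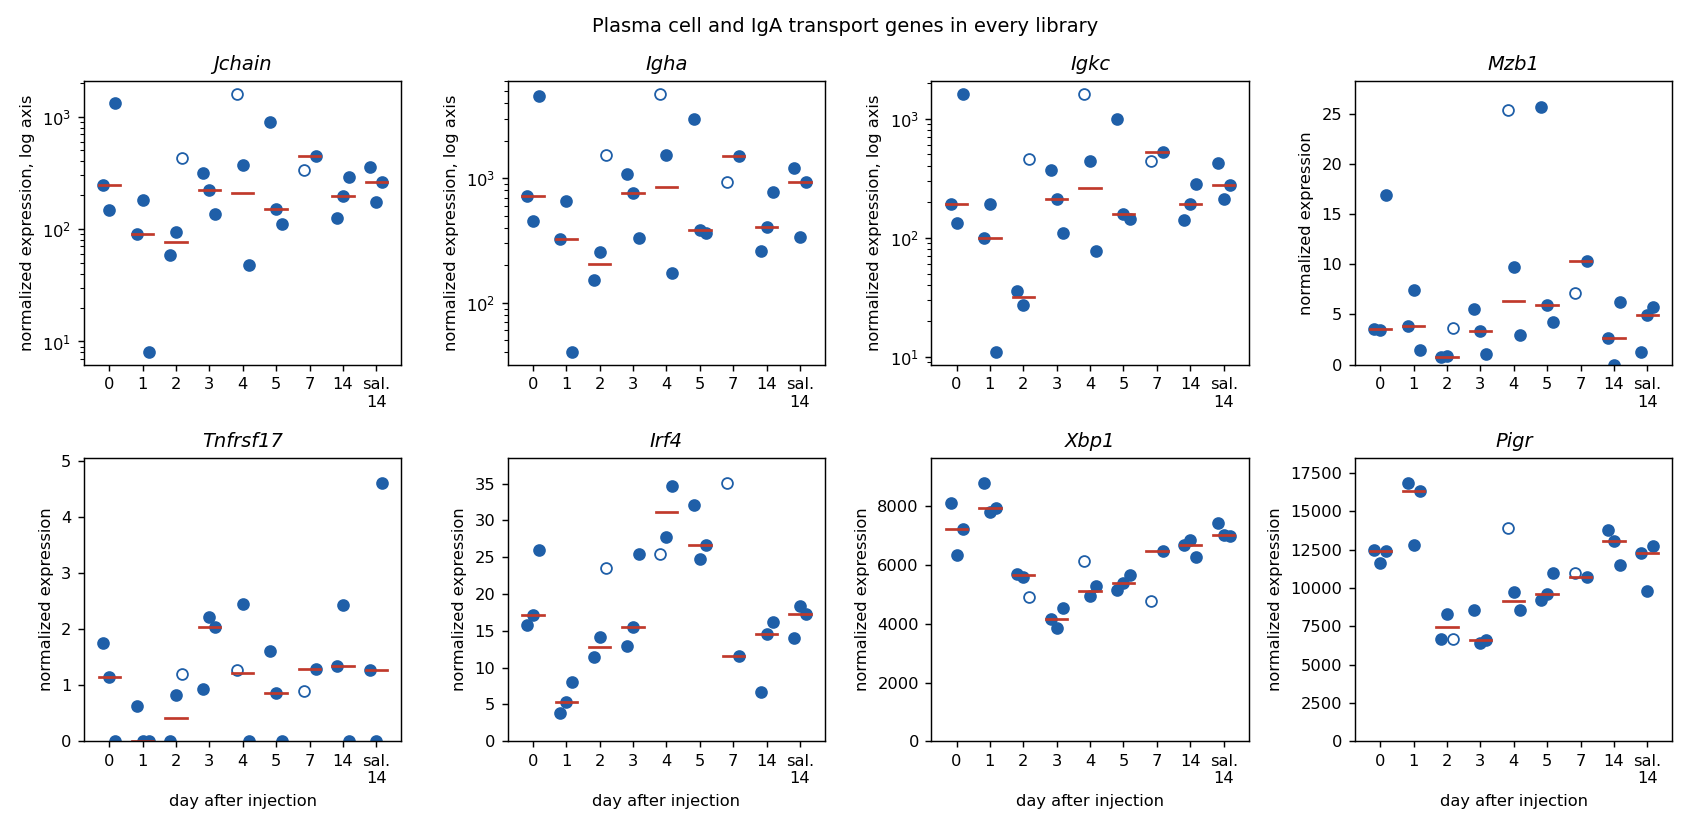
Normalized expression of the 8 genes in every library by day after injection (sal. 14 is the saline group), on a log axis for Jchain, Igha and Igkc and a linear axis from 0 for the others. Filled points entered the tests, open points are the 3 libraries left out by the study and red bars are medians of the filled points. Jchain, Igha and Igkc scatter widely within most groups, whereas Xbp1 is lowest at day 3 and Pigr at days 2 and 3.

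The proportions among the 3 genes changed far less than their levels. The ratio of Igha to Jchain lay between 1.95 and 5 in all 26 libraries (median 3.32), and its SD on the log2 scale was 0.32. The ratio of Igkc to Jchain lay between 0.289 and 1.63 (median 1.08), the lowest being day 2 mouse 2, in which a lambda segment led and lambda segments made up 68.6% of light chain segments.

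Across the 26 libraries, log2(value + 1) of Jchain correlated with that of Igha at r = 0.98 (rho = 0.98) and with that of Igkc at r = 0.96 (rho = 0.98). Both had a permutation p of 1e-05, the smallest that 100000 permutations can give, and an adjusted p of 9e-05 over 36 relations. Leaving out the 2 libraries farthest from the median of Jchain gave r = 0.97 and 0.94, and the deviations from the group means correlated at r = 0.99 and 0.97, so that the relation held among mice of the same day. Plasma cells express all of these genes, which were measured in the same libraries. B cells also express Igkc, and their part was not separated.

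**Figure D3:**
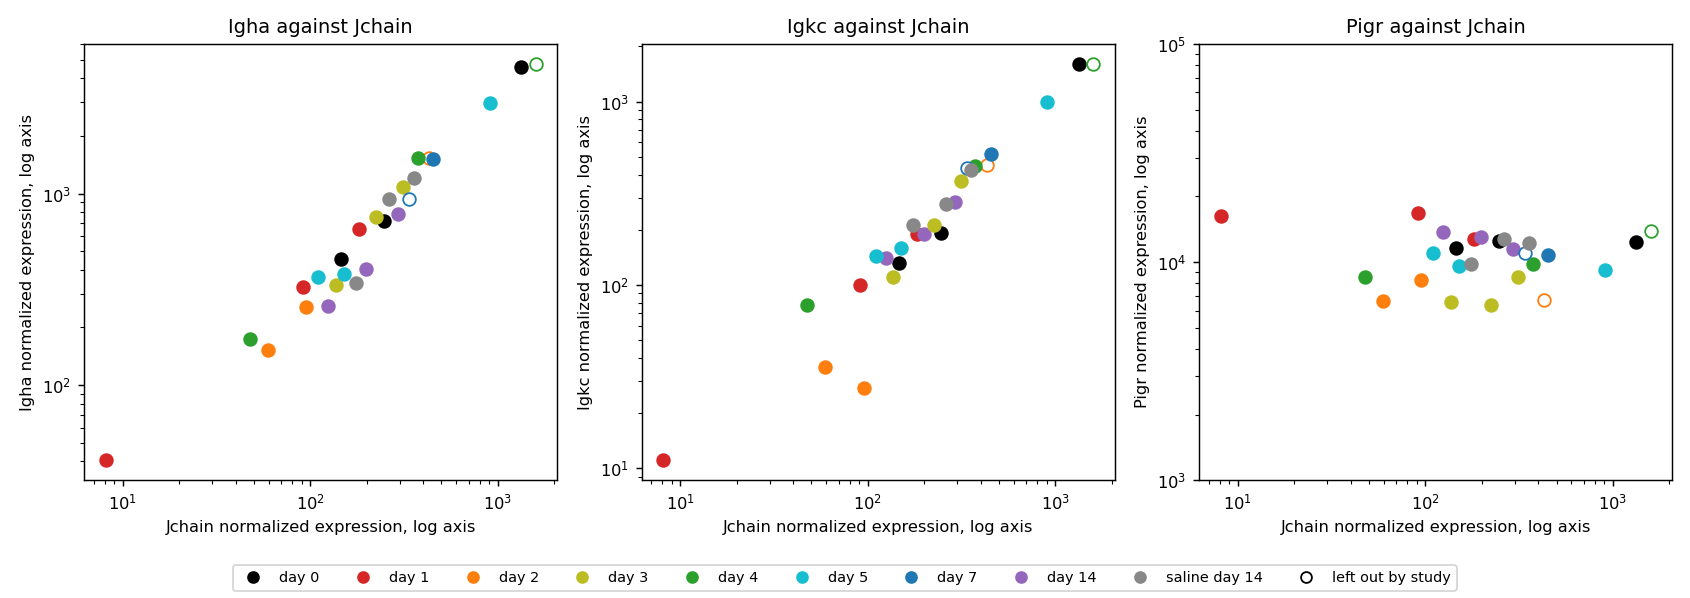
Igha, Igkc and Pigr against Jchain in the 26 libraries, all as normalized expression on log axes, with colours giving the group and open points the 3 omitted libraries. Igha and Igkc rise with Jchain across all groups (r = 0.98 and 0.96), whereas Pigr does not (r = -0.04).

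Mzb1, an endoplasmic reticulum protein that assists immunoglobulin assembly in plasma cells and marginal zone B cells (chromosome 18, 35647267 to 35649367, minus strand), was far scarcer, at 0 to 32 estimated counts. It stood at 3.51, 3.43 and 16.9 at day 0, at 3.82, 7.41 and 1.47 at day 1 and at 0.714, 0.834 and 3.61 (omitted) at day 2. It reached 25.4 in day 4 mouse 1 (omitted) and 25.7 in day 5 mouse 1, the same glands that were rich in Igha. Its r with Jchain was 0.68 (rho = 0.69, permutation p = 0.0001, adjusted p = 0.0006), 0.65 without the 2 farthest libraries and 0.78 for deviations from group means. No comparison called it, the difference from day 0 at day 2 being -2.0 ± 0.90 (adjusted p = 0.0977).

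Tnfrsf17, the receptor BCMA through which plasma cells receive survival signals (chromosome 16, 11313812 to 11320074, plus strand), had at least 1 estimated count in 18 of 26 libraries. Its highest value was 4.61 in saline day 14 mouse 3, and it was listed at 0 in day 0 mouse 3, the uninjured gland richest in Igha. A listed 0 allows up to 3 counts, so its differences were not detectable at this depth.

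The spread of Igha, Jchain and Igkc among mice of the same group was among the widest in the table. The SD within groups on the log2 scale was 1.48, 1.41 and 1.39, against a median of 0.23 over the 13762 genes tested, and exceeded that of 98.5%, 98.2% and 98.1% of genes. Among genes of like level the percentiles were 99.4, 99.8 and 99.7. The SD was 1.05 for Mzb1, 0.40 for Irf4, 0.18 for Pigr and 0.10 for Xbp1. Differences between groups made up 36.2% of the variance of Igha and 40.7% of that of Jchain, but 82.3% of that of Irf4, 86.8% of that of Pigr and 93.7% of that of Xbp1, the median gene having 64.1%. These shares are not adjusted for the number of groups. With 9 groups over 23 libraries a sizeable share arises without any group effect, so those of Igha and Jchain are no measure of an effect of day.

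The gene lists used here were chosen with earlier results of these data known, and their counts are descriptions. Shares of all genes given beside them belong to the main scaling. With libraries scaled to equal totals the median gene itself stood 1.18, 0.91, 0.69, 0.73 and 0.79 above day 0 on the first 5 days (log2). Counts of higher genes under that scaling are therefore not to be read against those shares. Among the heavy chain classes, IgA dominated in most glands. With values divided by annotated exon length, Igha made up a median of 77.6% of heavy chain constant region expression, from 32.2% in day 1 mouse 3 to 97.2% in day 0 mouse 3, and was the highest class in 21 of 26 libraries. Ighm, the IgM heavy chain made by naive B cells and IgM plasma cells, was the highest in the other 5, with a median of 20.8% and a maximum of 62.1%. Without division by length Igha led in 24 libraries and Ighm in 2. The 5 were day 1 mouse 3, day 2 mouse 1, day 4 mouse 3, day 5 mouse 2 and saline day 14 mouse 2. Ighg1 reached at most 7.29%, in day 14 mouse 1, Ighd, the IgD heavy chain of naive B cells, at most 3.29%, and Ighg2b, Ighg2c, Ighg3 and Ighe stayed at or under 1.76% each.

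**Figure D4:**
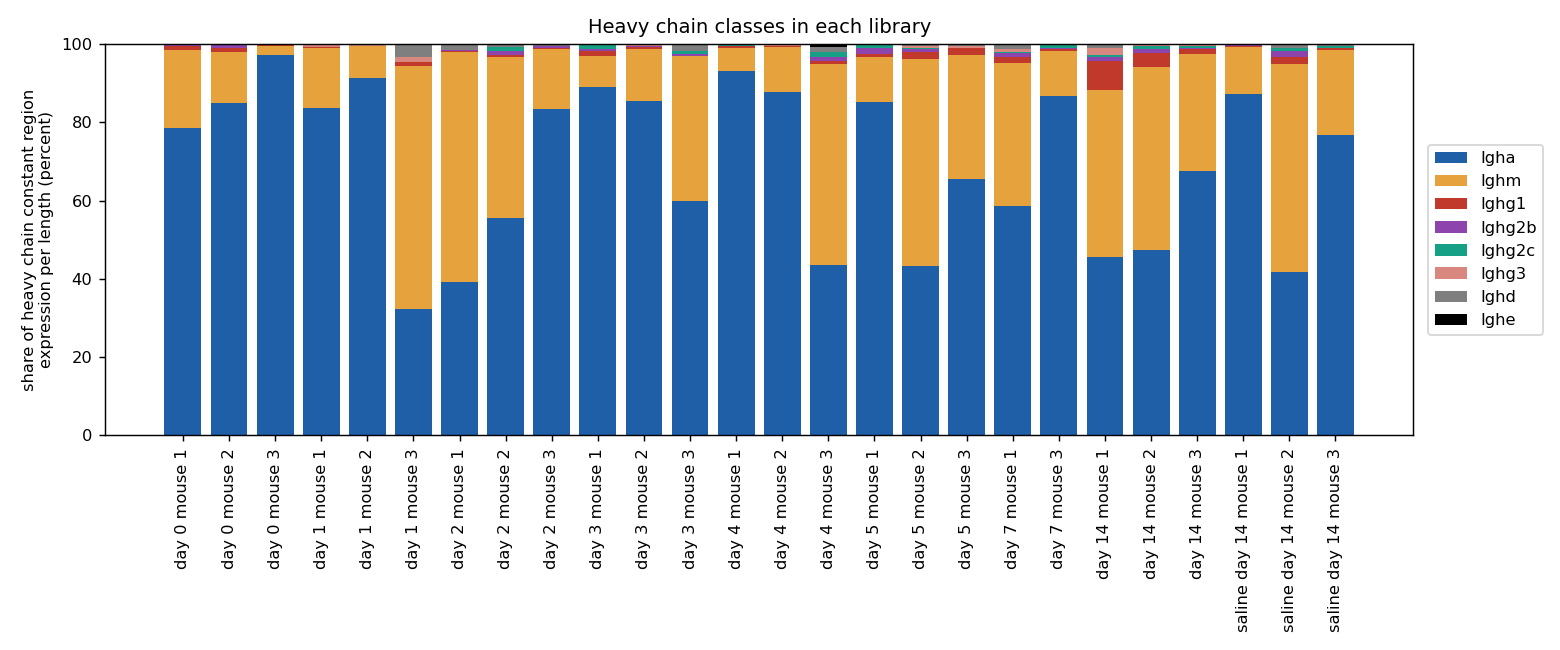
Share of each heavy chain class, in percent, in the summed heavy chain constant region expression per annotated exon length of each of the 26 libraries. Igha takes the largest share in 21 libraries and Ighm in 5, the share of Igha being 97.2% in day 0 mouse 3 and 32.2% in day 1 mouse 3.

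Ighm did not follow Igha. It ranged from 50.3 to 130 at day 0, from 41.1 to 55.2 at day 1, from 133 to 200 at day 2 and from 126 to 331 at day 5, and its r with Jchain was 0.30 (rho = 0.24, permutation p = 0.141, adjusted p = 0.281). It was higher than at day 0 at day 5 (1.51 ± 0.37 on the log2 scale, limma adjusted p = 0.00483) and at day 14 (1.51 ± 0.37, adjusted p = 0.0203). Of the 4 tested constant region genes outside the 8, none was called between day 14 and saline day 14, where 0% of all genes were. None was called in the saline group against day 0, but 1 was higher there with equal totals. The day 14 difference of Ighm is thus not shown to be particular to IL-1α. Ighg1 was lower at day 1 (-2.36 ± 0.77, adjusted p = 0.0174), but no constant region gene was called lower at day 1 with libraries scaled to equal totals. Ranges of genes other than the 8 include the omitted libraries.

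Irf4, the transcription factor that B cells need to become plasma cells and that T cells and dendritic cells also use (chromosome 13, 30749226 to 30766976, plus strand), was lower in all 3 mice at day 1 than in any uninjured mouse. It stood at 15.8, 17.2 and 26 at day 0 and at 3.82, 5.39 and 8.1 at day 1, a log2 fold change of -1.63 ± 0.33 (3.08-fold, limma adjusted p = 0.00048). It stood at 11.4, 14.2 and 23.5 (omitted) at day 2, at 13, 15.6 and 25.5 at day 3, at 25.4 (omitted), 27.7 and 34.7 at day 4 and at 32.1, 24.8 and 26.6 at day 5. At day 7 it stood at 35 (omitted) and 11.6, at day 14 at 6.69, 14.6 and 16.2, and after saline at 14.1, 18.4 and 17.3.

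The highest group means of Irf4 were at days 4 and 5, 0.67 ± 0.37 and 0.51 ± 0.33 above day 0 on the log2 scale (adjusted p = 0.228 and 0.268). The day 1 call held when any 1 library was left out (-1.86 to -1.40, adjusted p 0.000402 to 0.00466). These values rest on 4.99 to 40 estimated counts per library. With libraries scaled to equal totals, which moved the median gene by 1.18 at day 1, Irf4 was at -0.56 at day 1 (adjusted p = 0.154), and at 1.37 and 1.26 at days 4 and 5 (adjusted p = 0.0067 and 0.00408), so those calls depend on the scaling.

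Irf4 did not follow the immunoglobulin genes among mice of the same group, the deviations from group means correlating with those of Jchain at r = 0.01; over all libraries r was 0.40 (rho = 0.34, permutation p = 0.0418, adjusted p = 0.116). The genes most like it over the 26 libraries were Naalad2 (r = 0.89), Col14a1 (r = 0.88), which encodes a fibrillar-associated collagen, and Islr (r = 0.87). Outside the immunoglobulin genes, the gene most like Jchain, Igha and Igkc was Pou2af1, a coactivator of immunoglobulin promoters in B cells and plasma cells, at r = 0.68 each. Pou2af1 ranged from 0.736 to 35.3. Next came Mrps12 and Ube2g2 for Jchain (r = 0.64 each), Polr2i and Icmt for Igha (r = 0.63 each), and Mrps12 and Lurap1l for Igkc (r = 0.65 and 0.63). Pou2af1 and Elp5 were among those most like Mzb1 (r = 0.69 each).

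Xbp1, the transcription factor of the unfolded protein response that builds up the secretory apparatus of plasma cells and acinar cells (chromosome 11, 5520659 to 5525893, plus strand), was abundant in every gland, at 3851 to 8780. It stood at 8129, 6327 and 7231 at day 0 and at 8780, 7791 and 7959 at day 1. It stood at 5713, 5586 and 4927 (omitted) at day 2 and at 4152, 3851 and 4548 at day 3, and all libraries of these 2 days were below every uninjured one. At day 4 it stood at 6141 (omitted), 4956 and 5277, at day 5 at 5153, 5381 and 5661, and at day 7 at 4788 (omitted) and 6490. At day 14 it stood at 6675, 6854 and 6280, and after saline at 7439, 7032 and 6977.

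The log2 difference of Xbp1 from day 0 was -0.78 ± 0.09 at day 3, with a limma adjusted p of 3.03e-05, and -0.35 ± 0.10, -0.49 ± 0.10 and -0.41 ± 0.09 at days 2, 4 and 5 (adjusted p = 0.0149, 0.00304 and 0.00268). None of these reached the 2-fold limit used for a call. With libraries scaled to equal totals the day 3 difference was -0.10 and those at days 2, 4 and 5 turned to 0.55, 0.25 and 0.38. The median gene shifted by 0.69, 0.91, 0.73 and 0.79 at days 3, 2, 4 and 5, so Xbp1 was below the median gene at these days. Such scaling multiplies all genes of a library by the same factor. It could therefore hardly change this order and adds no separate evidence for it. At day 1 its difference was 0.18 ± 0.09 (adjusted p = 0.123) and became 1.37 with equal totals, a call (adjusted p = 4.52e-10), where the median gene moved by 1.18.

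Pigr, the receptor that carries IgA across the epithelium (chromosome 1, 130826684 to 130852249, plus strand), was the most abundant of the 8 genes by normalized expression, at 6384 to 16820. Per kilobase of exon it was at a median of 3077 at day 0, against 2226 for Xbp1, 363 for Igkc, 271 for Igha and 97.6 for Jchain. Pigr stood at 12480, 11660 and 12390 at day 0 and at 16820, 12830 and 16340 at day 1, all 3 above every uninjured mouse. It then stood at 6641, 8315 and 6705 (omitted) at day 2 and at 8566, 6384 and 6577 at day 3, all below every uninjured mouse.

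Pigr stood at 13930 (omitted), 9755 and 8575 at day 4, at 9228, 9592 and 10960 at day 5 and at 10960 (omitted) and 10740 at day 7. It stood at 13810, 13050 and 11490 at day 14 and at 12270, 9796 and 12730 after saline, so that the levels at day 14 overlapped those of the uninjured and saline groups. The difference between day 1 and day 2 was called, at -1.03 ± 0.16 on the log2 scale (2.05-fold, limma adjusted p = 0.000329). The change lay close to the 2-fold limit and slipped under it without day 1 mouse 1, day 1 mouse 3 or day 2 mouse 1 (-0.96, -0.98 and -0.87). Against day 0 the difference was 0.32 ± 0.14 at day 1 (adjusted p = 0.0677), -0.71 ± 0.16 at day 2 (adjusted p = 0.00153) and -0.78 ± 0.14 at day 3 (adjusted p = 0.00181), none of them 2-fold. With libraries scaled to equal totals the day 1 value was 1.51, a call (adjusted p = 7.22e-08), beside a median gene at 1.18. The day 2 value turned to 0.19 and the day 3 value was -0.09. Both lay below the shift of the median gene, an order that such scaling could hardly change.

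Pigr and Xbp1 rose and fell together over the 26 libraries (r = 0.81, rho = 0.80, permutation p = 1e-05, adjusted p = 9e-05), with r = 0.78 without the 2 libraries farthest from the median of Xbp1 and r = 0.42 for deviations from group means. Neither followed the amount of IgA transcript: r with Jchain was -0.04 for Pigr and -0.17 for Xbp1 (rho = 0.01 and -0.15, permutation p = 0.84 and 0.415, adjusted p = 0.916 and 0.593). The genes most like Pigr were Tbrg1 (r = 0.76), Hp, which encodes haptoglobin (r = 0.75), and Rhoc (r = 0.75). Those most like Xbp1 were Cldn10, a claudin of secretory epithelia, and Fermt2 (r = 0.88 each), and Hp (r = 0.87).

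RefSeq held promoter sequences of 5 of the 8 genes (GRCm38.p6). The 250 bases before the Pigr start, chr1:130826434-130826683 on the plus strand, are shown because this gene changed between days and its promoter contains an E-box, a motif bound by basic helix-loop-helix factors such as USF, printed in capitals.
Pigr: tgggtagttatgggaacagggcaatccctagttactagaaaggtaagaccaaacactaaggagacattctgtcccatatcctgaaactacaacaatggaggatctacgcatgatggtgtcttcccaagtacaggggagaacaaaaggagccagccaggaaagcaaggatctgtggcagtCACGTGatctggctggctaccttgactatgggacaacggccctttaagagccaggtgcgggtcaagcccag
The letters CACGTG, which read the same on both strands, begin 71 bases before the start, and 6.02% of all 32851 promoters hold them in the same window. The octamer ATGCAAAT (1.6% of promoters), the core of interferon-stimulated elements, which is GAAA, any 2 bases and GAAA (2.98%), and the core TGACGTG of unfolded protein response elements (1.65%), each searched on both strands, had no match in the Pigr, Jchain, Irf4 or Xbp1 windows, and the interferon-stimulated core matched once in that of Tnfrsf17. A match is a description of the letters only.

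**Figure D5:**
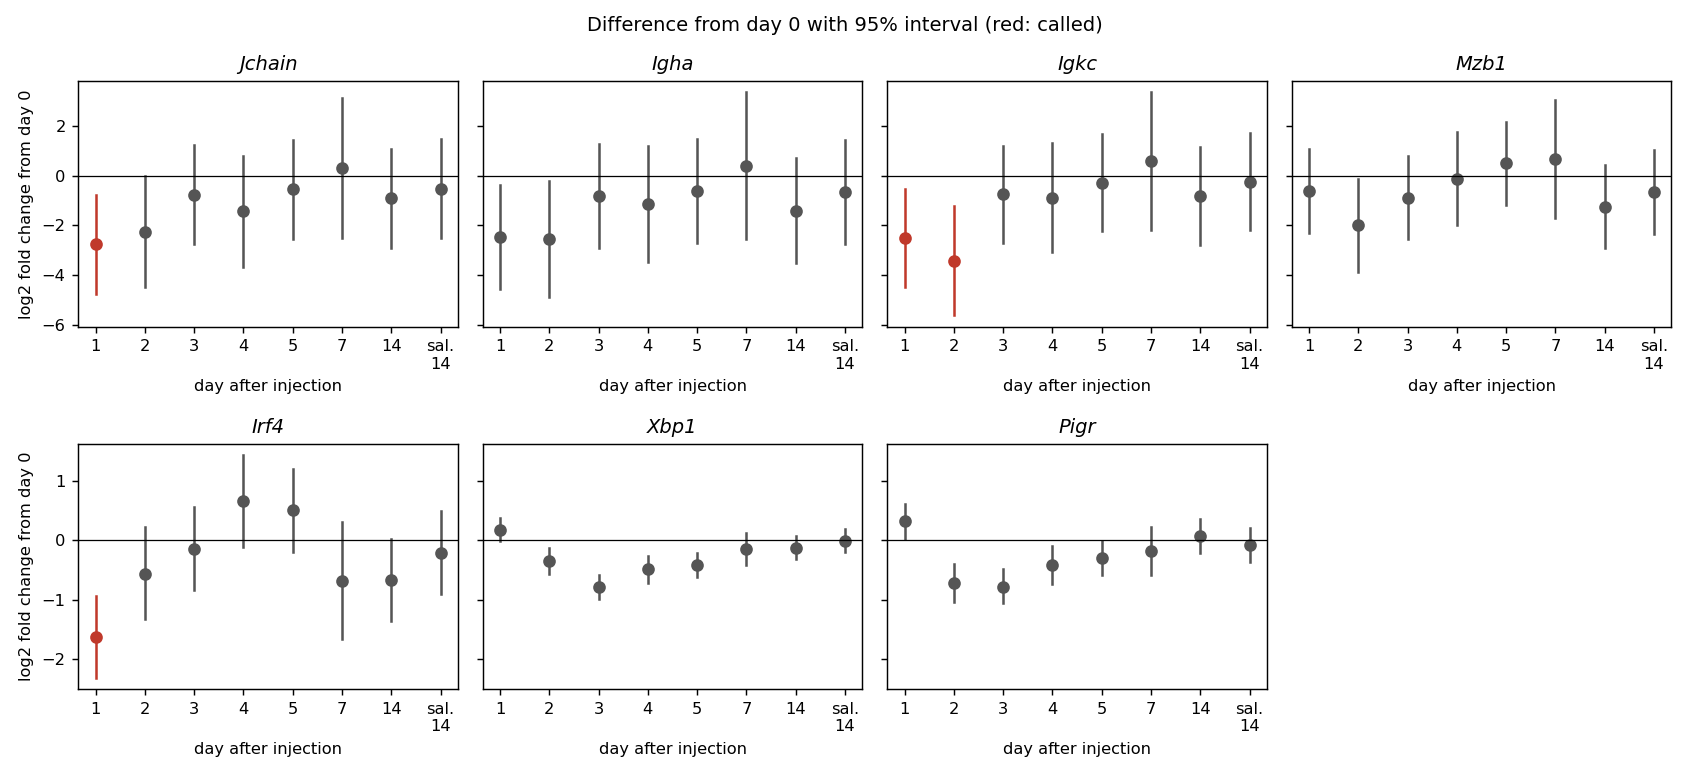
Log2 fold change from day 0 of the 7 genes tested, with 95% intervals, at each day after injection and in the saline group at day 14 (sal. 14), red where called. The calls are Jchain, Igkc and Irf4 at day 1 and Igkc at day 2, and the intervals of Jchain, Igha, Igkc and Mzb1 are several times wider than those of Xbp1 and Pigr.

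Counted over all comparisons, 3 of the 7 tested genes were called lower at day 1 and none higher, where 5.09% of all 13762 genes were called lower and 11.3% higher. At day 2 Igkc alone was called lower (1.14% of all genes lower, 11.0% higher). From day 1 to day 2 Pigr alone was called lower, with 0.632% of all genes. No member was called at days 3, 4, 5, 7 or 14 or in the saline group against day 0, where 3.15%, 7.39%, 10.4%, 0.189%, 1.66% and 0.959% of all genes were called in either direction.

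Nor was any member called from day 2 to 3, from day 3 to 4 or from day 4 to 5 (6.62%, 1.30% and 0% of all genes), or between day 14 and saline day 14 (0%). For the comparisons with no call by limma over all genes, 478 genes from day 4 to 5 and 682 between day 14 and saline had an unadjusted p under 0.05. Of the members, at that unadjusted p, there were 2, 2 and 2 of 7 at days 3, 4 and 5, 2, 3 and 0 of 7 in those 3 steps, and 0 of 7 at days 7 and 14, after saline and between day 14 and saline. Between day 14 and saline day 14 the 95% interval of the log2 difference ran from -2.37 to 1.6 for Jchain, from -0.31 to 0.08 for Xbp1 and from -0.14 to 0.44 for Pigr, so a return of the immunoglobulin genes could not be measured closely. 

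Other plasma cell genes were described from a list of 17, of which 16 were tested. At day 1, 8 were lower and 1 higher, where 5.09% of all genes were lower and 11.3% higher, with a median log2 fold change of -1.13 against 0.03 for all genes. The lower genes were Derl3, Fkbp11, Creld2, Ell2, Txndc5, Edem1, Sec11c and Tent5c. Fkbp11, a prolyl isomerase of the endoplasmic reticulum, was at -2.60 ± 0.21 (limma adjusted p = 4.73e-09) and Derl3, which helps to remove misfolded proteins, at -2.44 ± 0.19 (adjusted p = 2.59e-09). Most of these genes serve protein secretion, and acinar cells use them too. The summed level of the lacrimal acinus list was 2205870 to 3102725 at day 0 and 859508 to 942156 at day 1, with 8 of its 9 tested genes lower, and the part of this in the result was not tested. With libraries scaled to equal totals, 2 of the 16 were lower and 4 higher at day 1, with a median of 0.06 against 1.18 for all genes, and 4, 5, 6 and 6 were higher at days 2 to 5 in turn.

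The gene that was higher at day 1 was Tnfrsf13b, the receptor TACI on B cells and plasma cells. Tnfrsf13b stood at 3.51 to 5.2 at day 0, at 19.9 to 26.3 at day 1 and at 36.7 to 43.5 at day 2. It passed the filter through groups in which it was high, so no test is given and the filter partly set its place in the count. Cd27, a receptor of memory B cells, plasma cells and T cells, ranged from 7.37 to 11.5 in the saline group and from 0 to 3.51 at day 0; it passed the filter only through the saline group and 1 library of day 1, so no test is given. Prdm1, which encodes BLIMP1, ranged from 10.4 to 13.7 at day 0 and from 4.46 to 13.5 at day 1 (-0.47 ± 0.41, adjusted p = 0.379). Sdc1, which encodes syndecan-1 of plasma cells and epithelium, ranged from 89.5 to 118 and from 152 to 227 on those days, its difference of 0.97 ± 0.18 (adjusted p = 0.00021) being just under the 2-fold limit. Fkbp11 was higher than at day 0 at day 3 (1.09 ± 0.21, adjusted p = 0.00301).

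Of 17 endoplasmic reticulum genes that XBP1 or the unfolded protein response controls, 8 were lower at day 1 and none higher, where 5.09% of all genes were lower, with a median of -1.0. They included Sdf2l1 (-1.51 ± 0.16), Dnajc3 (-1.37 ± 0.11), Manf (-1.37 ± 0.14) and Herpud1 (-1.33 ± 0.10), with adjusted p from 3.2e-09 to 2.28e-07, and also Hspa5, Hyou1, Sec61a1 and Sec61b. Xbp1 itself was at 0.18 ± 0.09 on that day (adjusted p = 0.123). None of the 17 was called at days 2, 3, 4 or 5, but these counts depend on the scaling: with equal totals 1, 1, 5, 2 and 4 of them were higher on the first 5 days in turn and none lower, the median at day 1 being 0.19 against 1.18 for all genes.

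B cell genes followed another course from that of Igha. Of 12 listed, 6 were tested, of which 4, 4, 1, 4 and 6 were higher on the first 5 days in turn, where 11.3%, 11.0%, 2.57%, 6.97% and 9.80% of all genes were higher, and none was lower. These 6 include Ms4a1 and Cd22, which entered only through groups in which they were high, so the filter partly set the counts. The summed level of all 12, free of the filter, was 16 to 35.1 at day 0 and 69.4 to 83.9 at day 1. It was 133 to 217 at day 2, 42.2 to 92.8 at day 3 and 116 to 186 at day 5. With equal totals 8 were tested and 7, 7, 6, 8 and 8 were higher, so the low count at day 3 depends on the scaling. The median gene then stood at 1.18, 0.91, 0.69, 0.73 and 0.79. Ms4a1, which encodes CD20, was listed at 0 in the 3 uninjured libraries and stood at 6.67 to 16.3 at day 2, 10.6 to 36.8 at day 4 and 13.7 to 38.5 at day 5; it passed the filter through groups in which it was high, so no test is given. The same holds for Cd22, an inhibitory B cell receptor, listed at 0 at day 0 and at 13.3 to 22.9 at day 2. Plasma cells lose CD20, and the r of Ms4a1 with Jchain was 0.06 (rho = 0.13, permutation p = 0.789, adjusted p = 0.913). These counts and sums are of RNA and do not count B cells. The study's mass cytometry reported B cells decreased at day 1, and none of the 4 tested constant region genes outside the 8 was called higher on that day. The part of other leukocytes in the B cell list was not tested.

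Of 8 genes of germinal centres and class switching, 4 were tested; S1pr2 was higher at day 1 (1.26 ± 0.25, adjusted p = 0.000365) and Bcl6 lower at day 4 (-1.10 ± 0.31, adjusted p = 0.0172), but with equal totals none was lower at any of days 1 to 5. Madcam1 and Glycam1, markers of lymphoid vessels, reached at most 0.898 and 5.39. The summed level of the lymph node stroma list that holds both was 3.9 to 21.1 at day 0, 430 to 651 at day 1 and 275 to 386 at day 2. Only 1 of the 5 genes of this list in the table passed the filter on low values. The sums therefore do not show a rise of the list as a whole.

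Signals that draw and keep plasma cells were described from 20 genes, 14 of them tested. At day 1 and at day 2, 7 were higher and none lower, where 11.3% and 11.0% of all genes were higher, and 0, 4 and 4 were higher at days 3 to 5. With equal totals the counts on the 5 days were 13, 12, 7, 8 and 8 of 14, beside a median gene at 1.18, 0.91, 0.69, 0.73 and 0.79. Il6, a plasma cell survival cytokine, was listed at 0 at day 0 and stood at 16.2 to 20.6 at day 1 and 4.22 to 6.42 at day 2. It passed the filter only through day 1, so no test is given. Il6 is among the 14 tested, so the filter partly set the counts above. Cxcr4, the receptor by which plasma cells and other leukocytes follow CXCL12, was higher by 3.36 ± 0.43 at day 2 (adjusted p = 6.28e-06), Tgfb1, which directs switching to IgA, by 2.34 ± 0.29 (adjusted p = 5.39e-06) and Itga4, an integrin chain of leukocytes, by 2.12 ± 0.25 (adjusted p = 2.53e-06). These genes are also used by other leukocytes, whose summed markers rose with them: the monocyte and macrophage list from 768 to 1294 at day 0 to 3157 to 4551 at day 1 and 6486 to 8391 at day 2, and the neutrophil list from 1.75 to 6.50 to 1882 to 2401 and 684 to 990; the part of this in the result was not tested. Of neutrophil markers, Camp was at 0 throughout and Ly6g reached 8.76.

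Ccl28, the epithelial chemokine that attracts IgA plasma cells, was expressed in every gland at 958 to 2938 and was called in no comparison with day 0. Its receptor Ccr10 stood at 0 to 10.2.

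Pigr is known to be induced by IL-17, TNF, IFN-γ, IL-4 and IL-1 through NF-κB and IRF1. Of 18 genes encoding these factors and receptors, 13 were tested and 9 were higher at day 1 and 9 at day 2, none at day 3, 3 at day 4 and 4 at day 5, with none lower, beside 11.3%, 11.0%, 2.57%, 6.97% and 9.80% of all genes. With equal totals 12, 12, 5, 10 and 11 were higher on these days, beside a median gene at 1.18, 0.91, 0.69, 0.73 and 0.79. At day 1 Tnf was higher by 3.44 ± 0.44 (adjusted p = 1.94e-06), Il4ra by 2.96 ± 0.30 (adjusted p = 1.03e-07), Relb by 2.17 ± 0.27 (adjusted p = 1.33e-06) and Irf1 by 1.73 ± 0.16 (adjusted p = 4.29e-08). At day 2, when Pigr stood below its uninjured level, Tnfrsf1b was at 2.36 ± 0.27 (adjusted p = 1.61e-06). Il17a, Il17f and Ifng were at 1.80 or less in every library.

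Of 12 genes that move vesicles in the transcytosis of polymeric immunoglobulin, all were tested, and 1 was higher and 1 lower at day 1, where 11.3% and 5.09% of all genes were. Rab27b, a GTPase of secretory vesicles in lacrimal acinar cells, was lower at day 1 (-2.0 ± 0.13 on the log2 scale, adjusted p = 4.61e-10), and Rab11fip5, an effector of apical recycling, was higher at day 1 (1.06 ± 0.19, adjusted p = 9.48e-05) and day 2 (1.25 ± 0.21, adjusted p = 0.000119). The other 10, which include Rab3d, Rab25, Myo5b and Vamp8, were called at none of days 1 to 5. With libraries scaled to equal totals, 6 of the 12 were higher and none lower at day 1, beside a median gene at 1.18. At days 2 to 5 in turn 2, 1, 1 and 1 were higher.

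In the epithelium list of 14, 3 were higher and 1 lower at day 1 (11.3% and 5.09% of all genes). With libraries scaled to equal totals 9 were higher and none lower, beside a median gene at 1.18. Bhlha15, the transcription factor MIST1 that acts with XBP1 in both plasma cells and acinar cells, was lower at day 1 (-1.65 ± 0.11, adjusted p = 7.36e-10) and day 2 (-1.07 ± 0.13, adjusted p = 3.19e-06), while Cldn4, a claudin of ducts, was higher at day 1 (3.99 ± 0.48, adjusted p = 1.01e-06). The summed level of this list was 15706 to 17228 at day 0, 13223 to 16363 at day 1 and 9985 to 12425 at day 2, the day of the lowest sum; its part in the fall of Pigr was not tested.

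Partners and relatives of Irf4 were mostly higher at day 1. Of 6 listed, 5 were tested and 4 were higher at day 1, where 11.3% of all genes were higher: Spi1 by 2.92 ± 0.38 (adjusted p = 2.84e-06), Spib, Batf by 1.38 ± 0.54 (adjusted p = 0.0451) and Irf8 by 1.05 ± 0.15 (adjusted p = 8.73e-06). With equal totals 5 were higher, beside a median gene at 1.18. Spib, a factor of B cells and plasmacytoid dendritic cells, was listed at 0 at day 0 and stood at 3.82 to 7.41 at day 1 and 7.23 to 16.3 at day 5. It passed the filter through groups in which it was high, so no fold is given and the filter partly set the count of 4. Of the 6 tested genes of the dendritic cell list, 2 were lower and 1 higher at day 1, where 5.09% of all genes were lower and 11.3% higher. The lower were Cd209a (-1.09 ± 0.25, limma adjusted p = 0.00144) and Siglech (-1.55 ± 0.38, adjusted p = 0.00236), and the higher was Itgax (1.69 ± 0.33, adjusted p = 0.00029). The median of the list was 0.08 against 0.03 for all genes. With equal totals 2 of the 6 were higher and none lower, beside a median gene at 1.18.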

How the data were processed

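Total RNA from whole lacrimal glands was made into stranded mRNA libraries and sequenced as paired reads. Per the labels and methods, the authors aligned reads with STAR, quantified genes with RSEM (build mm10) and used DESeq2; versions of these are not given in the sources used here. The deposited values are a signal, RSEM estimated counts divided by a size factor for each library. The value of 1 estimated count was recovered from values under 12, of which 75.8% to 82.3% per library lay within 0.01 of a whole multiple, so no count model was used.

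Gene IDs were named from GENCODE M21 (42462 of 43346). Libraries were grouped by the labels. Values were tested with limma 3.58.1 in R 4.3.3 on log2(value + 1) with a trend, 9 groups in 1 fit, over the 13762 genes at 10 or more in at least 2 of 23 libraries. A call needed an adjusted p (Benjamini-Hochberg) of at most 0.05 and a 2-fold change. The fit was tested on simulated data. Correlations used 100000 permutations over 36 relations. Sequences were aligned with Biopython 1.88. Precision is limited by the number of mice and by depth.

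The members and gene lists were chosen with earlier results of these data known. Named genes were the 8 members in every library, up to 4 called genes a list with the largest change and up to 2 in the opposite direction, list markers near 0, the 3 most abundant and the leading variable segments, and the 3 genes most like each member. Other genes named (Ccl28, Ccr10, Prdm1, Sdc1, Irf1 and further called genes of the plasma cell and XBP1 lists) were chosen after their values were seen. Alternatives were all libraries, a pseudocount of 0.1, no filter, a replicate block, 2-group fits, equal totals, adjusted p alone, leaving out each library, saline as control and classes not divided by length. A few items that these rules would name are not reported here.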

Additional observations from a re-analysis of the deposited data

Results flagged for a closer look

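Pigr differed between 2 time points: its change from day 0 was 0.32 at day 1 and -0.71 at day 2, and the difference itself, tested with limma, was -1.03 on the log2 scale (adjusted p = 0.000329), with both tested day 2 mice below all 3 day 1 mice. Of the 3 libraries that the study left out, 2 held values above the highest uninjured library. In day 4 mouse 1, Igha stood at 4752 (uninjured highest 4560), Jchain at 1593 (1327), Mzb1 at 25.4 (16.9) and Pigr at 13930 (12480). In day 7 mouse 1, Irf4 stood at 35 (26). These values were not tested. Groups had at most 3 libraries, so no search for single outlying libraries was made.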

How the results depend on the processing

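No called difference changed sign. Counts of members called changed as follows. With all libraries in the fit, day 1 had 2 calls in place of 3 (Igkc lost, adjusted p = 0.0796), day 2 had 0 calls in place of 1 and the step from day 1 to day 2 had 2 in place of 1. Without the filter on low values, day 1 had 1 in place of 3 and day 2 had 0. In fits of only the 2 groups compared, day 1 had 1 and the step from day 2 to day 3 had 1 in place of 0. With equal library totals, days 4 and 5 had 1 each (Irf4, higher), and the 2 calls at day 1 were Xbp1 (1.37) and Pigr (1.51), both higher, in place of Jchain, Igkc and Irf4. With adjusted p alone, days 2, 3, 4 and 5 had 3, 2, 1 and 1, and the steps to days 2 and 3 had 2 and 1. With saline as control, day 1 had 1. Leaving out 1 library gave 1 to 4 at day 1, 0 to 1 at day 2 and 0 to 1 from day 1 to day 2. The cause of these changes was not tested. The calls at day 1 that rest on day 0 mouse 3 and day 1 mouse 3 are given with the genes; without day 0 mouse 2 or day 1 mouse 2, Igha was called at day 1 (-3.13 and -3.30). Without division by length, the IgA share had a median of 82.9%, Igha led in 24 libraries in place of 21 and Ighm in 2 in place of 5. Mouse numbers do not pair the libraries: deviations of same-numbered libraries correlated at a median of 0.00 (-0.34 to 0.30, 70 pairs). With the replicate block, the step from day 1 to day 2 had 2 calls (Irf4, 1.22, adjusted p = 0.0199), and the block changed no other call count by more than 1.5 times. Of 1162 member values under all alternatives, 88 changed sign, none of them called. Jchain, Igha and Igkc rest on as few as 11, 55 and 15 estimated counts.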
